A study of Mus musculus with 2 samples.

Results

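The genes described here are 10 classic targets of the hypoxia-inducible factors (HIFs): Vegfa, Egln3, Ldha, Pgk1, Aldoa, P4ha1, P4ha2, Ero1a (Ero1l in older annotation), Bnip3 and Ndrg1. They were chosen by name, from knowledge of HIF-induced genes and with earlier results of these data known. Every probe set whose only annotated gene was one of them was taken. This gave 24 of the 22690 probe sets on the array and all 10 genes of the list, out of 12393 genes that could be named. Biotin-labelled total RNA from back skin of mice aged 10 days was hybridised to 2 arrays. One array held skin of transgenic mice titled K14Ahr, which express a constitutively active aryl hydrocarbon receptor (AhR) in keratinocytes, and the other held skin of non-transgenic wild-type littermates. The number of animals behind each array is not labelled, and no other allele or agent is named for either genotype. With 1 array per genotype there was no replicate error and no test, so each difference below is a difference between these 2 arrays.

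HIFs and AhR share a partner. A HIF alpha subunit, such as Hif1a, is destroyed in oxygenated cells after prolyl hydroxylation and recognition by the Vhl protein. When oxygen is short it accumulates, pairs with ARNT and binds DNA at the core A/GCGTG. AhR, once active, also enters the nucleus and pairs with ARNT, and this pair binds at GCGTG. The induced HIF targets raise glucose uptake and glycolysis, signal for new vessels, fit collagen synthesis to low oxygen and remove mitochondria. A comparison of skin with and without an active AhR therefore bears on whether transcripts of the HIF programme differ when the other user of ARNT is switched on.

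None of the 10 members differed by 2-fold between the arrays in either direction. Across the 8894 measured genes, 2.27% passed 2-fold upward and 1.09% downward in transgenic skin. A gene counts as measured when its brightest probe set read above a floor of 34.7, the 40th percentile of all signals, on at least 1 array, and that probe set stands for the gene. At a limit of 1.5-fold, 2 of 10 members were higher (Egln3 and Bnip3), against 6.80% of measured genes, and none was lower, against 6.38%. The members split evenly about equality. The log2 ratios (transgenic over wild type) ran from 0.37 to 0.67 for Egln3, Bnip3, Ldha, Pgk1 and Ndrg1, and from -0.46 to -0.01 for Aldoa, P4ha2, P4ha1, Vegfa and Ero1a. When log2 ratios were centred on their median, Aldoa (0.03) and P4ha2 (0.00) moved to the other side of 0, and Vegfa (0.09) did so without probe sets that carry a name suffix. The median over the members was 0.18, and over all measured genes it was -0.05. Above 0 lay 5 of 10 members and 43.6% of measured genes, and below 0 the other 5 and 56.4%. Of the 23 member probe sets above the floor on at least 1 array none passed 2-fold, against 2.08% of 13276 such probe sets upward and 0.994% downward, while 3 were at least 1.5-fold higher, against 6.31%, and none lower, against 6.39%.

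The promoter stretches of 4 members are shown because they carry the HIF core in genes that read higher on the transgenic array (Egln3, Bnip3, Pgk1) and in the member with the lowest ratio (Ero1a). Each is the 250 bases before the transcript start, from RefSeq on the mouse build GRCm38.p6, 5′ to 3′ on the gene's strand. Capitals mark every ACGTG and GCGTG on either strand, so a match on the other strand reads CACGT or CACGC. The Egln3 stretch is chr12:54203875-54204124 on the minus strand, Bnip3 chr7:138909507-138909756 on the minus strand, Pgk1 chrX:106186850-106187099 on the plus strand and Ero1a chr14:45318573-45318822 on the minus strand.
Egln3: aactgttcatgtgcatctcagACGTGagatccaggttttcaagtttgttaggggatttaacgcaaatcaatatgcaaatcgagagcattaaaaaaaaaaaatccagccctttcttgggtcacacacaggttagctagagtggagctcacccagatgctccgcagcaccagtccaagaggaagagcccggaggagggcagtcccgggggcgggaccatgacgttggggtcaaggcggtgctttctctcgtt
Bnip3: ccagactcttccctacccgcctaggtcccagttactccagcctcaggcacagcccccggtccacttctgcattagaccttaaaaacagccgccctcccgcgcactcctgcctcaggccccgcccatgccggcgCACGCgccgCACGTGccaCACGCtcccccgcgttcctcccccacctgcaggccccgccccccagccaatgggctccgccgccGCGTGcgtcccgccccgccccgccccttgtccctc
Pgk1: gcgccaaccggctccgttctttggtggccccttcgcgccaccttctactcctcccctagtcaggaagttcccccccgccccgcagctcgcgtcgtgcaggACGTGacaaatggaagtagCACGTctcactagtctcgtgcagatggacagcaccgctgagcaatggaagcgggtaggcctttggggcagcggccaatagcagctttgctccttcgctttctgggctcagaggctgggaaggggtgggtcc
Ero1a: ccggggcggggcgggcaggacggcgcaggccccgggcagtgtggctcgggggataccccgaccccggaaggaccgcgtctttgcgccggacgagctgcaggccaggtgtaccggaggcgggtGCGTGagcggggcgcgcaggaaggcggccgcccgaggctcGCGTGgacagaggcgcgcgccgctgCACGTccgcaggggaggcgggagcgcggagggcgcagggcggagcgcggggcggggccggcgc

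Positions are counted back from the transcript start, with -1 the base before it. Egln3 had 1 ACGTG, at -229 to -225. In Pgk1 there were 2, at -150 to -146 on the gene's strand and at -131 to -127 on the other strand. Bnip3 held CACGTG, which reads as ACGTG on both strands, at -108 to -103, between GCGTG matches on the other strand at -117 to -113 and -99 to -95. A further GCGTG match in Bnip3 stood on the gene's strand at -35 to -31. Ero1a held ACGTG at -63 to -59 on the other strand and GCGTG at -128 to -124 and -88 to -84. The RefSeq table had entries for 9 members, with 13 start windows, and none for Ndrg1. ACGTG stood in 10 of 13 member windows, against 21.1% of the 9203 windows of 7171 measured genes and 16.6% of all 32851 windows. The members were chosen as known HIF targets, so the HIF core comes with that choice and the contrast is not a result of these arrays. All 9 genes had ACGTG in at least 1 window, but no share per gene was computed for the other measured genes. Of the 10 windows with ACGTG, 2 are Aldoa windows that share 174 bases and hold the same single match. GCGTG, the core that AhR also uses, stood in 6 of 13 member windows, against 43.7% of windows of measured genes. Member windows had a median GC content of 67.2%, against 59.6%. Of the 13 windows, 6 lie inside the annotated span of their gene, among them both Ldha windows, all 3 Aldoa windows and 1 of 2 Vegfa windows. The Vegfa window outside the gene held neither core, and the Ldha window at its first listed start held 5 ACGTG matches, 4 of them from 2 copies of CACGTG. Members that read higher and members that read lower thus both held the HIF core, and a match in a window is a string of letters, not a measured binding site.

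**Figure D1:**
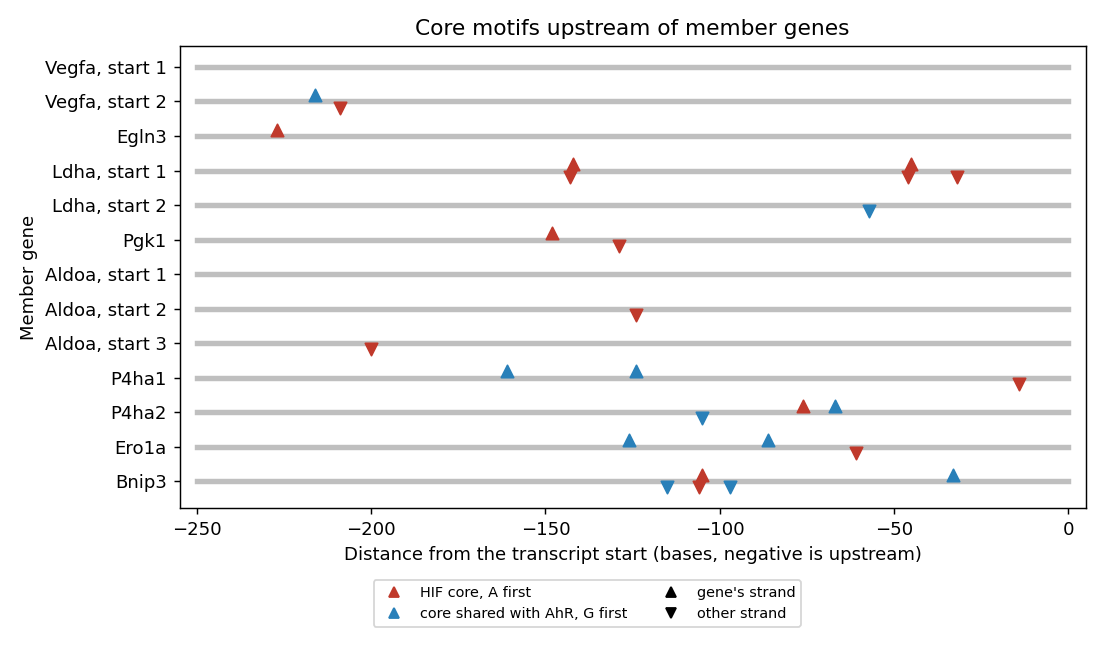
The 250 bases upstream of each listed start of 9 member genes, with distance from the start in bases on the x axis and 1 row per start. Triangles mark the core with A first (red) and the core with G first that AhR shares (blue), pointing up on the gene's strand and down on the other. The A-first core stands in 10 of 13 windows, in members with higher and with lower signal on the transgenic array.

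The secreted signal and the feedback enzyme among the members read differently. Vegfa encodes the growth factor that draws vessels toward tissue short of oxygen, and keratinocytes are a source of it in skin. Its brighter probe set read 78.3 in transgenic skin, against 100.1 in wild-type skin, a log2 ratio of -0.35 (1.28-fold lower). The other Vegfa probe set read 36.9 against 34.6, at the floor, so the 2 probe sets fell on opposite sides of equality and the dimmer one carries little information. Egln3 encodes a prolyl hydroxylase that marks HIF alpha subunits for destruction and is itself HIF-induced, a feedback loop. It had the highest ratio of the members. Egln3 read 358 in transgenic skin, against 225 in wild-type skin by its brighter probe set (log2 ratio 0.67, 1.59-fold higher) and 142 against 107 by the other (0.41). Both Egln3 probe sets read higher on the transgenic array, and the brighter ratio exceeded that of 94.6% of measured genes.

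**Figure D2:**
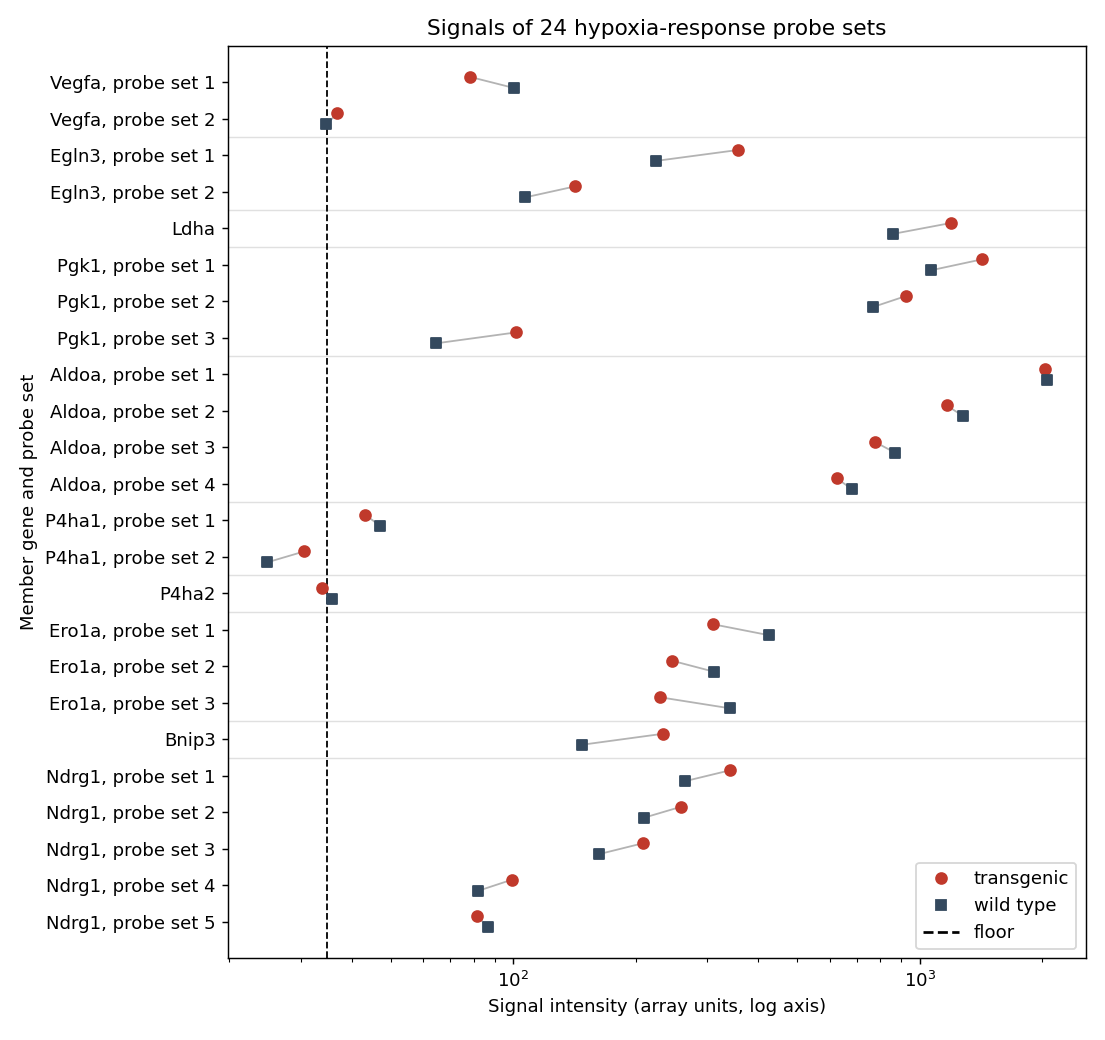
Signal intensity on a log axis (array units) for each of the 24 member probe sets, 1 row each, with the transgenic array as red circles and the wild-type array as dark squares. The dashed line is the floor of 34.7. Egln3, Ldha, Pgk1 and Bnip3 lie higher on the transgenic array in every probe set, Aldoa and Ero1a lie lower in every probe set, and P4ha1, P4ha2 and the dimmer Vegfa probe set sit near the floor.

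The glycolytic members did not move as a block. Ldha encodes the lactate dehydrogenase subunit that regenerates NAD from pyruvate, and Pgk1 the phosphoglycerate kinase that makes ATP in glycolysis. Ldha read 1195 in transgenic skin, against 860.0 in wild-type skin (log2 ratio 0.47, 1.39-fold higher, above 90.8% of measured genes). Pgk1 read 1419.8 against 1064 by its brightest probe set (0.42, 1.33-fold higher). The other Pgk1 probe sets read 926 against 769 (0.27) and 101.5 against 64.5 (0.65), so all 3 lay above 0. Aldoa, the muscle-type fructose-bisphosphate aldolase that many tissues express, read 2029.8 in transgenic skin, against 2050.4 in wild-type skin (-0.01). Its other 3 probe sets had log2 ratios from -0.17 to -0.13, all slightly lower on the transgenic array. Ldha, all Aldoa probe sets and 2 of the 3 Pgk1 probe sets, the brightest among them, carry a name suffix. On this kind of array a suffix marks probes that several transcripts or related sequences can share. The Pgk1 probe set without a suffix had the lowest Pgk1 ratio, 0.27. The RefSeq gene table also lists pseudogenes of Ldha and Aldoa.

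Of the members that act on proteins in the endoplasmic reticulum, Ero1a read lower and the others were dim. P4ha1 and P4ha2 encode catalytic subunits of collagen prolyl 4-hydroxylase, which stabilises the collagen triple helix. P4ha1 read 43.2 in transgenic skin, against 47.0 in wild-type skin (log2 ratio -0.12), and its second probe set, 30.6 against 24.8, was under the floor in both genotypes. P4ha2 read 33.8 against 35.8, on either side of the floor. Both genes were thus too dim here for a difference to be read. Ero1a encodes the oxidase that passes electrons from protein disulfide isomerase to oxygen. It read 311 in transgenic skin, against 426 in wild-type skin by its brightest probe set (-0.46, 1.37-fold lower), 246 against 312 by another (-0.34) and 230.1 against 341 by the third (-0.57). All 3 Ero1a probe sets, none with a suffix, were lower on the transgenic array, and the brightest lay above only 11.0% of measured genes.

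Bnip3 and Ndrg1 read higher. Bnip3 encodes an outer-membrane receptor that targets mitochondria for autophagy. It read 233 in transgenic skin, against 147 in wild-type skin by its single probe set (log2 ratio 0.66, 1.58-fold higher, above 94.4% of measured genes). Ndrg1 encodes a differentiation- and stress-induced protein that is present in epidermis and in Schwann cells. Ndrg1 read 341 against 264 by its brightest probe set (0.37, 1.29-fold higher). The next 3 of its probe sets had ratios from 0.27 to 0.36, and the dimmest read 81.4 against 86.8 (-0.09), the only one below 0.

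**Figure D3:**
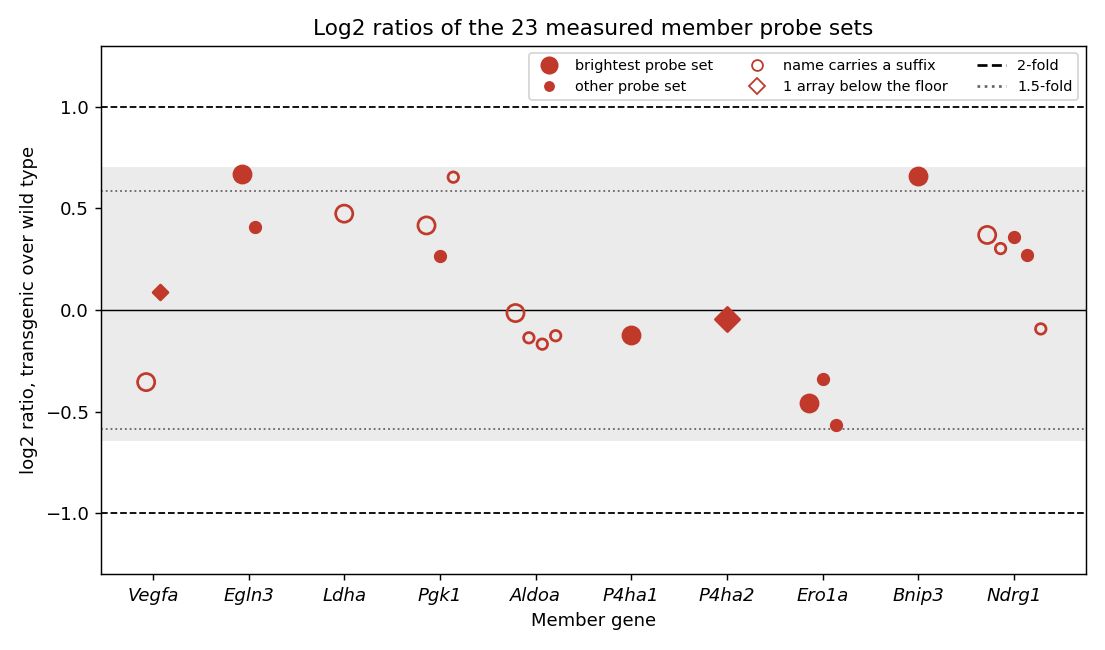
Log2 ratio (transgenic over wild type) of the 23 member probe sets that read above the floor on at least 1 array, grouped by gene. Large symbols are the brightest probe set of a gene, open symbols carry a name suffix, diamonds had 1 array below the floor, the grey band holds the central 90% of measured genes, and lines mark 1.5-fold and 2-fold. No probe set reaches 2-fold, and only Egln3, Bnip3 and the dimmest Pgk1 probe set pass 1.5-fold.

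Agreement between probe sets of a gene is the nearest thing to a repeat measurement here. Probe sets of an array share its RNA, label and scaling, so their spread holds no error between arrays or animals. Across 1764 genes with exactly 2 probe sets that cleared the floor in both genotypes, the 2 log2 ratios differed by a median of 0.22, and in 10% of these genes by more than 0.62. Across 2535 genes with more than 1 such probe set, the range had a median of 0.28 and was above 0.69 in 10%. Member ranges were 0.15 for Aldoa, 0.23 for Ero1a, 0.26 for Egln3, 0.39 for Pgk1, 0.44 for Vegfa and 0.46 for Ndrg1. They come from 4 probe sets for Aldoa, 3 for Ero1a and Pgk1, 5 for Ndrg1 and 2 for Egln3 and Vegfa. A range tends to widen with more probe sets, and that of Vegfa includes a probe set at the floor. Beyond the brightest probe set of each gene, 6 of 7 further measured probe sets of Egln3, Pgk1 and Ndrg1 lay above 0, and 5 of 6 of Aldoa, Vegfa and Ero1a lay below 0. These genes were grouped by the sign of their brightest probe set, and no share of such agreement over all genes was computed. In order of ratio, the widest gap between neighbours was 0.38, between Ndrg1 and Aldoa. The other neighbouring pairs in that order differed by 0.23 or less. The central 90% of all measured genes ran from -0.64 to 0.70, so every member lay inside it.

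**Figure D4:**
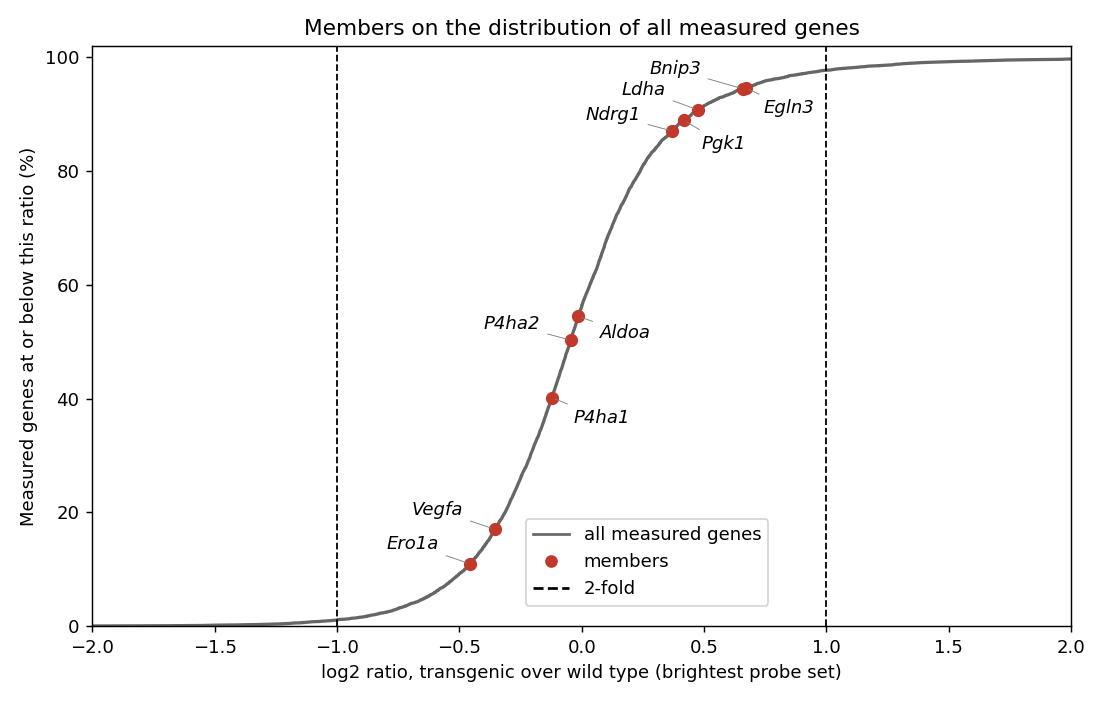
Cumulative share of the 8894 measured genes (y axis, percent) by log2 ratio, transgenic over wild type (x axis), with the 10 members as red points and dashed lines at 2-fold. Ndrg1, Pgk1, Ldha, Bnip3 and Egln3 sit between 87.0% and 94.6%, Aldoa, P4ha2 and P4ha1 near the middle, and Vegfa (17.0%) and Ero1a (11.0%) in the lower part.

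Other HIF-induced genes lay on both sides of equality, with more of them past 1.5-fold upward than downward. Among 40 measured genes of the glycolysis list and the list of other HIF targets, 3 passed 2-fold upward, against 2.27% of all measured genes, and none downward. At 1.5-fold, 11 of the 40 were higher (27.5%, against 6.80%) and 2 lower (5%, against 6.38%). Above 0 lay 24 of the 40, and 43.6% of all measured genes. Of the 11, Stc2 and Slc2a3 cleared the floor on the transgenic array alone. Among genes that cleared it in both genotypes, 6 of 25 other HIF targets and 3 of 12 glycolysis genes were at least 1.5-fold higher. In each of these 2 lists 1 such gene passed 2-fold upward. No share of all genes that cleared the floor in both genotypes was computed to set beside these counts. These 40 genes had a median log2 ratio of 0.17. Both lists were chosen with earlier results of these data known. Slc2a1, the glucose transporter of keratinocytes and of the HIF programme, read 155 in transgenic skin, against 74.1 in wild-type skin (1.06, 2.09-fold higher). Its other 2 probe sets read 120 against 48.8 and 100.2 against 28.2, higher as well. Angptl4, an inhibitor of lipoprotein lipase, read 454 against 188 (2.42-fold higher) by a suffixed probe set, and its dimmer probe set was under the floor in both genotypes. Stc2, a secreted glycoprotein, read 89.0 against a wild-type signal of 22.4, below the floor, at least 2.56-fold higher. Slc2a1 fell short of 2-fold when a pseudocount of 16 replaced the floor (0.92), and Stc2 with the floor at the 60th percentile (0.33). At the lower end stood Plod2, a collagen lysyl hydroxylase, with 48.2 against 83.4 (-0.79), and Vldlr, a lipoprotein receptor, with 42.3 against 71.3 (-0.75). Both are dim, and a floor raised to the 60th percentile put Plod2 at -0.24 and Vldlr at -0.01.

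Along glycolysis, 9 of 14 measured genes outside the members lay above 0, against 43.6% of all measured genes, with a median of 0.37. At 1.5-fold, 4 of the 14 were higher, against 6.80% of measured genes, and none was lower, against 6.38%. Slc2a3, a glucose transporter, is one of these 4 and read 54.0 against 20.2, under the floor in wild-type skin. Of the 12 glycolysis genes that cleared the floor in both genotypes, 3 were at least 1.5-fold higher, with no like share computed over all genes. Pkm, the pyruvate kinase upstream of lactate dehydrogenase, read 648 in transgenic skin, against 393 in wild-type skin (0.72, 1.65-fold higher). The lowest were Pfkfb3 (at most -0.28), which makes an activator of phosphofructokinase, and Pdk1, the kinase that inhibits pyruvate dehydrogenase. Pdk1 read 75.4 against 92.7 by one probe set (-0.30) and 86.7 against 56.9 by the other (0.61), so its direction was not settled. Ldhb, the heart-type partner of Ldha, read 121 in transgenic skin, against 166 in wild-type skin (-0.45), and all 4 of its probe sets were below 0 while that of Ldha was above.

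In the VEGF system, 7 of 13 listed genes were measured, with a median of -0.17. None differed by 2-fold by its brightest probe set, against 2.27% of measured genes upward and 1.09% downward. At 1.5-fold, 2 of the 7 were higher, against 6.80% of measured genes, and none was lower, against 6.38%. Vegfd, a lymphatic growth factor, read 67.5 in transgenic skin, against 39.8 in wild-type skin (0.76) by its brightest probe set. The other Vegfd probe sets read 62.9 against 37.0 (0.77) and 71.7 against 29.7, under the floor in wild-type skin (at least 1.05). Kdr, the main VEGF receptor of endothelium, read 86.6 against 55.0 (0.65, but 0.29 with the floor at the 60th percentile). Flt4, the lymphatic VEGF receptor, read 80.8 against 109 (-0.43) by its brighter probe set and 37.8 against 25.7 (at least 0.12) by the other. Tek, the angiopoietin receptor, read 33.7 against 50.3 (at most -0.54). The signals of Tek and of the brightest Vegfd probe set all lie under the higher floor. Endothelial markers had a median of 0.10 over 7 measured genes, with summed signals of 638 and 608. Of the partners of P4ha1, P4ha2 and Ero1a, 9 were measured, with a median of 0.20. None passed 2-fold, against the same shares of measured genes, 2.27% upward and 1.09% downward. At 1.5-fold none of the 9 was higher and 2 were lower, against 6.80% and 6.38%. P4hb, the protein disulfide isomerase that is also the second subunit of prolyl 4-hydroxylase, read 1420.3 against 1155 (0.30) and Plod3, another lysyl hydroxylase, 199 against 143 (0.48). Pdia4, a disulfide isomerase, read 46.8 against 88.7 (-0.92, but -0.33 once the floor is raised to the 60th percentile), and Ero1b, the paralog of Ero1a, 43.0 against 66.5 (-0.63) by one probe set and 51.6 against 43.5 (0.25) by another.

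The factors upstream of the members had a median near equality. Of 11 measured HIF factors and regulators none passed 2-fold upward and 1, Hif1a, did so downward, against 1.09% of measured genes, with a median of -0.09. Hif1a, the oxygen-regulated subunit, read 188 in transgenic skin, against 408 in wild-type skin by its brightest probe set (-1.12, 2.17-fold lower). Its next probe sets read 53.5 against 73.0 (-0.45) and 37.4 against 39.8 (-0.09), and a further one lay below the floor. The 2-fold difference in Hif1a thus rests on 1 suffixed probe set, and the mean over its 3 measured probe sets was -0.55. Arnt, the shared partner, read 67.0 against 74.8 (-0.16), Ahr 136 against 109 (0.32), and Epas1, the endothelial HIF alpha subunit, was under the floor in both genotypes. Egln2, a sister of Egln3, read 189 in transgenic skin, against 122 in wild-type skin (0.63), Vhl 57.2 against 51.3 (0.16) and Hif3a 51.5 against 77.2 (-0.58, but -0.13 with the higher floor). By contrast, all 5 measured genes of the AhR battery passed 2-fold upward, against 2.27% of all measured genes, with a median of 1.78. These were Cyp1a1, Cyp1b1, Aldh3a1, Nqo1 and Tiparp, with log2 ratios of 5.46, 1.98, 1.78, at least 1.27 and 1.14. Cyp1a2 and Ahrr, the other 2 of the 7 listed genes, were under the floor in both genotypes. Nqo1 read 83.6 against 21.8, under the floor in wild-type skin, so it was measured through the transgenic array alone. Raising the floor to the 60th percentile put Nqo1 at 0.24 and the median of the battery at 1.38, and Tiparp was 0.88 without suffixed probe sets. The difference between the battery and the HIF members was not tested.

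**Figure D5:**
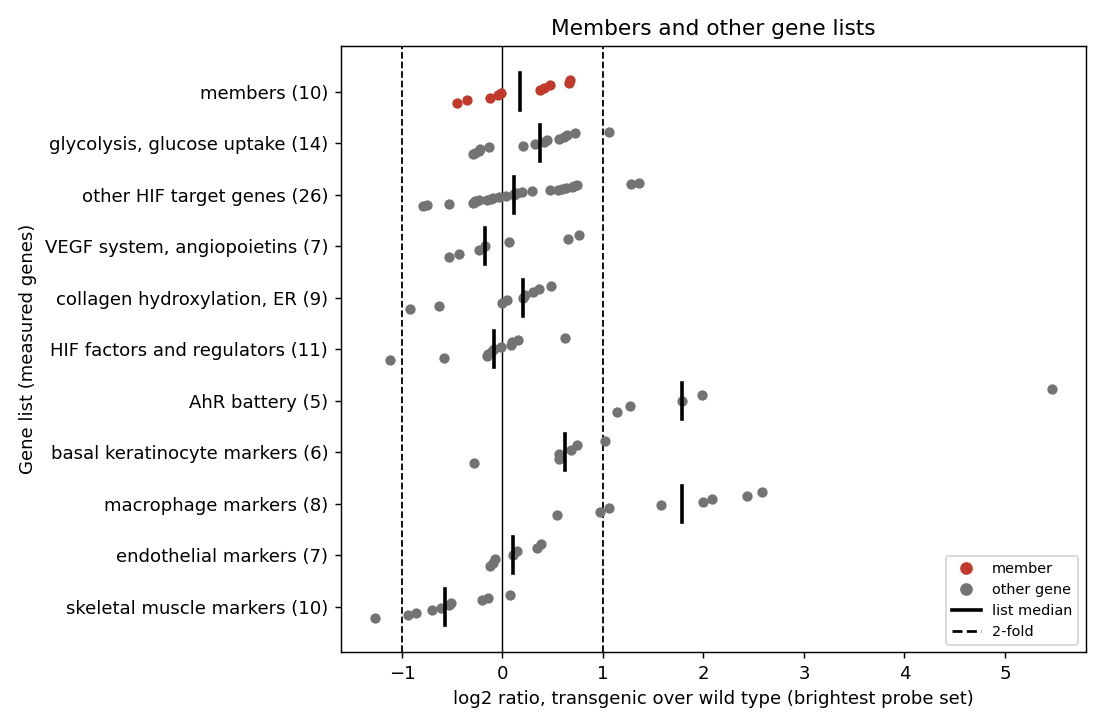
Log2 ratio (transgenic over wild type) of each measured gene of 11 lists (points), with the list median as a black bar, the number of measured genes in brackets and dashed lines at 2-fold. The 10 members (red) lie between -0.46 and 0.67, and all 5 measured AhR battery genes lie past 2-fold. Macrophage markers have a median of 1.79 and skeletal muscle markers one of -0.57.

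Markers of the cell types that back skin holds also differed between the arrays. In whole skin, fewer cells of a type and less RNA per cell cannot be told apart. The marker counts stand beside 56.4% of all measured genes below 0 and 43.6% above 0. Of 10 muscle markers 9 lay below 0 (median -0.57, summed signal 4897 in transgenic skin, against 6144 in wild-type skin), and of 8 macrophage markers all lay above 0 (median 1.79, 2371 against 779). Basal keratinocyte markers lay above 0 in 5 of 6 genes (median 0.62, 7445 against 4916) and suprabasal ones in 5 of 7 (0.88, 11189 against 4819). Hair shaft markers lay below 0 in 5 of 5 genes (-0.39, 11575 against 15087). Fibroblast markers had a median of 0.21 over 7 genes (9618 against 10043), adipocyte markers one of -0.07 over 3 (2186 against 2504) and red blood cell markers one of -0.19 over 2 (123 against 138). Vwf, Lep, Hba-a1 and Epb42 were under the floor in both genotypes, and no listed marker gene that the array names read 0. Glycolytic enzymes are abundant in muscle and Vegfa is made by keratinocytes and macrophages, and the part of these cell types in the members' ratios was not tested. The signals of Krt5 (2754 against 1868) and Krt14 (3328 against 1987), the keratins of basal epidermis, were bright on both arrays. The basal marker below 0 was Trp63, with 358 against 437 (-0.29). The suprabasal markers below 0 were Ivl, with 42.9 against 121 (-1.50), and Dsc1, with 273 against 311 (-0.19).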

How the data were processed

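Skin total RNA carried a biotin label and went onto 1-colour arrays, 1 per genotype, per the labels. The authors deposited 1 linear signal intensity for each probe set, none negative. Their 2% trimmed mean was 100.03 on both arrays, so they had been scaled before deposit, and the software that made them is not stated in the labels. Median signals were 49.1 in transgenic and 50.7 in wild-type skin, and the log2 signals of 12679 probe sets above the floor on both correlated at r = 0.952, across probe sets, which are not replicates. Of 22690 probe sets 64 were controls, and of the others 20380 had 1 gene in the platform annotation, 691 several and 1555 none. Names were given to the first kind, with symbols updated through a RefSeq gene table of GRCm38.p6.

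The 2% trimmed means were made equal once more, and signals were raised to the floor at the 40th percentile (34.7) and put on the log2 scale. A ratio with 1 signal at the floor is a bound. The calculation was tested on simulated data. Python 3.11.15, numpy 2.4.6, scipy 1.17.1, pandas 2.3.3 and statsmodels 0.14.6 were used. ACGTG and GCGTG were searched on both strands. The number of arrays limits the precision.

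The members and all gene lists were chosen with earlier results of these data known. Named are all members, Hif1a, Epas1, Arnt, Ahr, the measured AhR battery and, of each other list, genes among its 2 highest and 2 lowest ratios. Krt5, Krt14, P4hb, Slc2a3 and genes below the floor were added after their values were seen. Alternatives were the values as deposited, median centring, quantile normalization, lowess centring (span 0.4), the floor moved to the 20th or the 60th percentile, a pseudocount of 16, the mean over probe sets, leaving out suffixed probe sets, and limits of 1.5-fold and 3-fold. Their use on genes and lists outside the members was added after the data were seen.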

Additional observations from a re-analysis of the deposited data

How the results depend on the processing

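No member reached 2-fold in either direction under any of the 9 other scalings, floors and probe set choices run. The 3-fold limit was set on the main ratios, where none passed 2-fold, so none could pass it. With a limit of 1.5-fold, 2 members were higher and 0 lower. Over all measured genes, 51.6% of those past 1.5-fold were higher, and 61.9% with lowess centring. The median log2 ratio of the members ran from 0.10 (mean over probe sets) to 0.39 (floor at the 60th percentile, 8 members measured). The number of members below 0 was 5, but 3 of 10 with median-centred ratios, 3 of 8 under the 60th percentile floor and 3 of 8 without suffixed probe sets. Egln3 (0.54 to 0.72), Bnip3 (0.61 to 0.71), Ldha (0.39 to 0.52), Pgk1 (0.27 to 0.46) and Ndrg1 (0.24 to 0.42) stayed above 0 and Ero1a (-0.47 to -0.41) below 0 in every setting that measured them. Only Egln3 or Bnip3 passed 1.5-fold, both in 9 settings and 1 of them with the mean over probe sets. Vegfa was 0.09 without suffixed probe sets. Outside the members, Hif1a was -0.45 and Tiparp 0.88 without suffixed probe sets and Hif1a -0.55 with the mean, and at the 60th percentile floor Stc2 was 0.33, Nqo1 0.24, Plod2 -0.24, Vldlr -0.01 and Pdia4 -0.33. Slc2a1 was 0.92, just under 2-fold, with the pseudocount. No paired analysis was possible because each genotype has 1 array. No replicate could be left out for the same reason. Signals near the floor limit what can be read of P4ha1, P4ha2 and the dimmer Vegfa probe set.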
